A study of Mus musculus with 20 samples.

Results

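Transcripts of 45 genes of the lysosome and of autophagy were followed in the neocortex and hippocampus of mice carrying an acetylation-mimic form of TDP-43, the RNA-binding protein that aggregates in frontotemporal lobar degeneration and amyotrophic lateral sclerosis. The genes were chosen by name from a table of 24528 genes, and all 45 were measured: none stood at 0 in every library, and all 45 were tested in both regions. They comprise 7 genes of the lysosomal membrane and of transport across it, 8 proteases and related acid hydrolases of protein, 12 hydrolases of sugars and lipids with their activator, 4 subunits of the proton pump, 2 transcription factors, 10 genes of autophagosome formation, and Spg11 and Plekhf1. The last pair was placed on the list because the study names both as altered in these libraries, so their difference is not independent evidence.

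TDP-43KQ/KQ mice are homozygous for a CRISPR-engineered lysine-to-glutamine substitution in the endogenous gene, made on a C57BL/6J background, and TDP-43wt mice carry the unmodified gene. The neocortex was represented by 6 TDP-43KQ/KQ and 5 TDP-43wt libraries and the hippocampus by 5 TDP-43KQ/KQ and 4 TDP-43wt libraries of total RNA depleted of ribosomal RNA, all from mice of 18 months and of both sexes. A point substitution leaves the gene in place, so gene-level values do not show the substitution itself. The study reports a raised Tardbp transcript in TDP-43KQ/KQ tissue, which was not used here to check the genotype labels. The values are log2-like, with sex and litter removed, and each gene is centred on its mean over the neocortex TDP-43KQ/KQ libraries. A value of 0.10 therefore lies 0.10 log2 units above that mean, no value is an expression level, and sequencing depth cannot be read from the table.

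The lysosome is the acidic compartment in which proteins, glycans and lipids are degraded. A vacuolar proton pump acidifies it, soluble hydrolases work in its lumen, and membrane proteins such as LAMP1 and LAMP2 line and protect it. Macroautophagy brings cytosolic cargo to it: the ULK1 kinase and the Beclin 1 complex start a membrane, ATG9A carries lipids and ATG5 and ATG7 attach LC3 and GABARAP proteins to it, and the closed autophagosome fuses with the lysosome. TFEB and TFE3 are transcription factors that bind the CLEAR element, whose core is the E-box CACGTG, in the promoters of many of these genes. Loss of several members causes neuronal storage diseases, and in the brain lysosomal hydrolases are also abundant in microglia. In whole-tissue RNA fewer cells of a type and less RNA per cell cannot be told apart.

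The promoters of the members are shown first, since they mark which members carry the letters of the CLEAR core. RefSeq promoters on GRCm38, running from 250 bases before to 50 bases after each start, were matched by symbol for 37 of the 45 members. CACGTG, which reads the same on both strands, was present for 13 of these 37 members (35.1%), against 8.09% of all 27025 genes of the promoter table and 10% of the genes of it that were not at 0 throughout in these libraries. The longer palindrome TCACGTGA, which contains CACGTG, was present for 7 of 37 members (18.9%), against 1.12% of all genes. These 7 were Mcoln1 and Cln3 of the membrane, the proteases Ctsa and Ctsd, the alpha-galactosidase gene Gla, and the pump genes Atp6v0d1 and Atp6v1a. Lamp1 held the shorter motif at 4 places and Ctsf, Ctsl, Gaa, Atg5 and Atg7 at 1 each, while neither Plekhf1, Spg11, Tfeb nor Tfe3 held it in this window. A match is a description of the letters and not evidence of binding. A stretch of 30 bases around TCACGTGA, 5′ to 3′ on the strand of the gene with the palindrome in capitals, is shown for each of the 7 genes:
Mcoln1 (chr8:3500462-3500491, plus strand): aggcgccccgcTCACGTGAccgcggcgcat
Cln3 (chr7:126583340-126583369, minus strand): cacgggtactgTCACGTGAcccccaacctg
Ctsa (chr2:164833749-164833778, plus strand): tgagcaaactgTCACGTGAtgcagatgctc
Ctsd (chr7:142387908-142387937, minus strand): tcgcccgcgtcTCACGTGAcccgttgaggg
Gla (chrX:134601182-134601211, minus strand): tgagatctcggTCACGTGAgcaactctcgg
Atp6v0d1 (chr8:105566050-105566079, minus strand): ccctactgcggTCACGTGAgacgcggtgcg
Atp6v1a (chr16:44139373-44139402, minus strand): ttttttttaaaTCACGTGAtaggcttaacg

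Before the comparisons, the libraries themselves need a description. Neocortex TDP-43wt male 1 is the only library of its litter, and after the removal of litter its values equal the mean of the other neocortex TDP-43wt libraries, from which they deviate by an SD of 8.5e-10 over genes. It adds nothing to any estimate. The neocortex and hippocampus libraries of TDP-43KQ/KQ female 2, the only libraries of their litter, deviate from their groups in mirror image (correlation -1 over genes). For the other libraries the SD around the group mean ran between 0.0537 and 0.131. The pooled within-group SD had a median of 0.065 over the 45 members and 0.0731 over all genes. Genotypes of the same sex and litter met in 2 places in each region: females of litter 6 (1 TDP-43KQ/KQ and 2 TDP-43wt libraries) and males of litter 5 (2 TDP-43KQ/KQ and 1 TDP-43wt library). Differences within these litters are free of the removal of sex and litter and are given beside the fits. In the hippocampus alone the genotype estimate is the mean of these 2 differences, and TDP-43KQ/KQ females 2 and 3 and TDP-43wt female 3 do not move it.

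The first question was whether any member differed between the genotypes in a region. None of the 45 passed an adjusted p of 0.05 in limma fits of either region alone with genotype, sex and litter as terms. The background was low: 0.0382% of 18329 genes were called for the neocortex, and 0% of 18310 for the hippocampus. With DESeq2, corrected for sex and litter, the study itself called many more genes in each region. It names Plekhf1 as raised in both regions and Spg11 as raised in the neocortex. The present fits use already corrected values with 4 and 3 residual degrees of freedom, so 0 calls do not show that no member differs. At an unadjusted p under 0.05, 10 members were found in the neocortex (22.2%, against 13.7% of all genes) and 5 in the hippocampus (11.1%, against 12.1%). Plekhf1 and Spg11, listed because the study names them, are among the 10, and Plekhf1 is among the 5. These counts rest in part on single libraries: without TDP-43KQ/KQ female 1 of the region the neocortex count was 2 (4.44%, against 5.2% of all genes) and the hippocampus count 1 (2.22%, against 2.71%), without TDP-43wt female 1 the neocortex count was 6 (13.3%, against 11.7%), and without TDP-43KQ/KQ male 2 the hippocampus count was 3 (6.67%, against 8.68%). With both regions in 1 model, which has more residual degrees of freedom, 0 members were called in either region, where the background was 0.224% of 17863 genes for the neocortex, with 0.386% for the hippocampus, and 9 members (20%) had an unadjusted p under 0.05 in each, against 14.4% of all genes for the neocortex and 14.8% for the hippocampus. No member differed in its genotype effect between the regions (background 0%); 3 of 45 (6.67%, against 5.83% of all genes) had an unadjusted p under 0.05 for that difference, namely Ctsh (0.22 ± 0.08, hippocampus effect minus neocortex effect, ± SE), Ctsl (0.26 ± 0.11) and Atg9a (-0.13 ± 0.06), and the lowest adjusted p, that of Ctsh, was 0.807. The count of 0 depends on the litter term. With genotype as the only term 10 members were called in the neocortex alone and 1, Plekhf1, in the hippocampus alone. In the neocortex Plekhf1 and Spg11 were higher, and Ctsb, Ctsh, Ctsz, Gla, Gusb, Hexa, Lamp1 and Tfeb lower. These fits leave uncounted the degrees of freedom used when litter was removed. The share of all genes they called is not given here, so the counts describe the fits and nothing particular to the members.

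**Figure D1:**
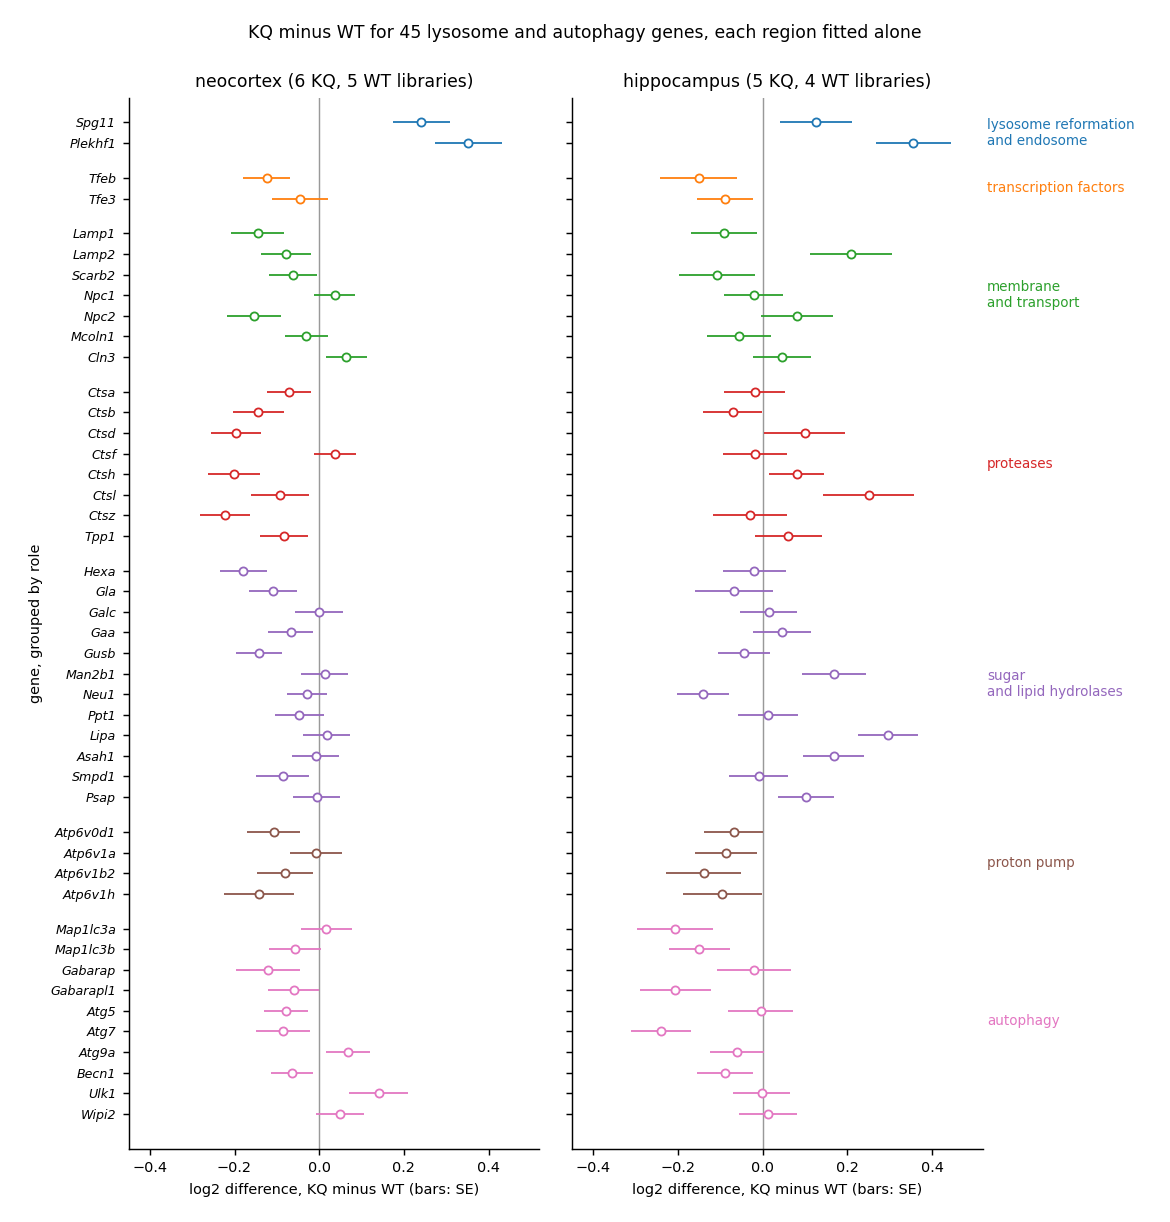
Log2 difference, TDP-43KQ/KQ (KQ) minus TDP-43wt (WT), of each of the 45 members in the neocortex (left) and hippocampus (right); points are estimates of limma with each region fitted alone, bars are ± 1 SE, and colours mark roles. All points are open because no member had an adjusted p under 0.05; Plekhf1 stands farthest right in both regions at 0.35 and 0.36, and 7 of the 8 proteases lie left of 0 in the neocortex.

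The members nevertheless leaned to lower values in the TDP-43KQ/KQ neocortex. There 34 of 45 differences were below 0, with a median of -0.065 log2 units, against 51.5% of all genes and a median of -0.0037. In the hippocampus 28 of 45 were below 0 with a median of -0.020, against 51.7% and -0.0047 for all genes. Without each library in turn the neocortex median ran between -0.092 and -0.031, the value without TDP-43KQ/KQ female 1. The hippocampus median ran between -0.041, without TDP-43wt female 1, and -0.0026, without the TDP-43wt male. Single differences kept their sign in all of these fits for 34 of 45 members in the neocortex, and for 28 of 45 in the hippocampus. Within litters, 33 of 45 members were lower in the neocortex of TDP-43KQ/KQ females of litter 6 and 34 of 45 in that of males of litter 5, and 23 and 31 of 45 in the hippocampus. Across both regions 23 members had a negative difference in each, 6 a positive difference in each (Cln3, Man2b1, Lipa, Wipi2, Spg11 and Plekhf1), 11 were below 0 in the neocortex and above it in the hippocampus, and 5 showed the reverse. These counts describe the members, which share regulators and cell types, and carry no test.

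Plekhf1 encodes a phosphoinositide-binding protein of endosomes and lysosomes that has been linked to apoptosis. In the neocortex its value ran between -0.0956 and 0.106 in TDP-43KQ/KQ libraries (median 0.00529), against -0.165, -0.466 and -0.397 in TDP-43wt females 1 to 3 and -0.366 and -0.438 in TDP-43wt males 1 and 2. All TDP-43KQ/KQ libraries lay above all TDP-43wt libraries. The difference was 0.35 ± 0.08 (SE), a 1.28-fold ratio, with a 95% interval of 0.17 to 0.53 and an unadjusted p of 0.0015 that ranked 151 among 18329 genes; the adjusted p of limma was 0.182. In the hippocampus the TDP-43KQ/KQ values were 0.101, 0.0457 and 0.12 in females and 0.169 and 0.157 in males, against -0.0744, -0.345 and -0.054 in TDP-43wt females and -0.239 in the TDP-43wt male. Here too the genotypes did not overlap. The difference was 0.36 ± 0.09 with an adjusted p of 0.275.

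Both litters gave the same direction for Plekhf1: 0.29 in litter 6 females and 0.51 in litter 5 males of the neocortex, and 0.31 and 0.40 in the hippocampus. In the model of both regions its adjusted p was 0.0644 for the neocortex difference, with 0.142 for that of the hippocampus, and the regions did not differ in effect beyond their error (-0.07 ± 0.11, hippocampus minus neocortex, 95% interval -0.30 to 0.16). Its neocortex estimate ran between 0.25, without TDP-43wt male 2, and 0.40 when single libraries were left out of the fit of that region. Plekhf1 lies on chr7:38220654-38227994 of GRCm38.

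Spg11 encodes spatacsin, which takes part in the re-formation of lysosomes from autolysosomes and is mutated in a hereditary spastic paraplegia. In the neocortex its values ran between -0.088 and 0.113 in TDP-43KQ/KQ libraries (median -0.0144), against -0.224, -0.365 and -0.251 in TDP-43wt females and -0.252 and -0.169 in TDP-43wt males. The groups did not overlap. The difference was 0.24 ± 0.07, a 1.18-fold ratio, with an unadjusted p of 0.0058 and an adjusted p of 0.248. In the hippocampus the TDP-43KQ/KQ values were 0.134, 0.144, 0.0862, 0.0401 and 0.0441, against 0.0949, -0.156, 0.0811 and -0.0439 in TDP-43wt libraries, so that TDP-43wt females 1 and 3 overlapped with the TDP-43KQ/KQ range. The difference there was 0.13 ± 0.09 (95% interval -0.07 to 0.32, adjusted p 0.568), or 0.066 without TDP-43wt female 2. The effect in the hippocampus minus that in the neocortex was -0.16 ± 0.09 (unadjusted p 0.106), so a difference between the regions was not shown. Spg11 lies on chr2:122053526-122119434.

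**Figure D2:**
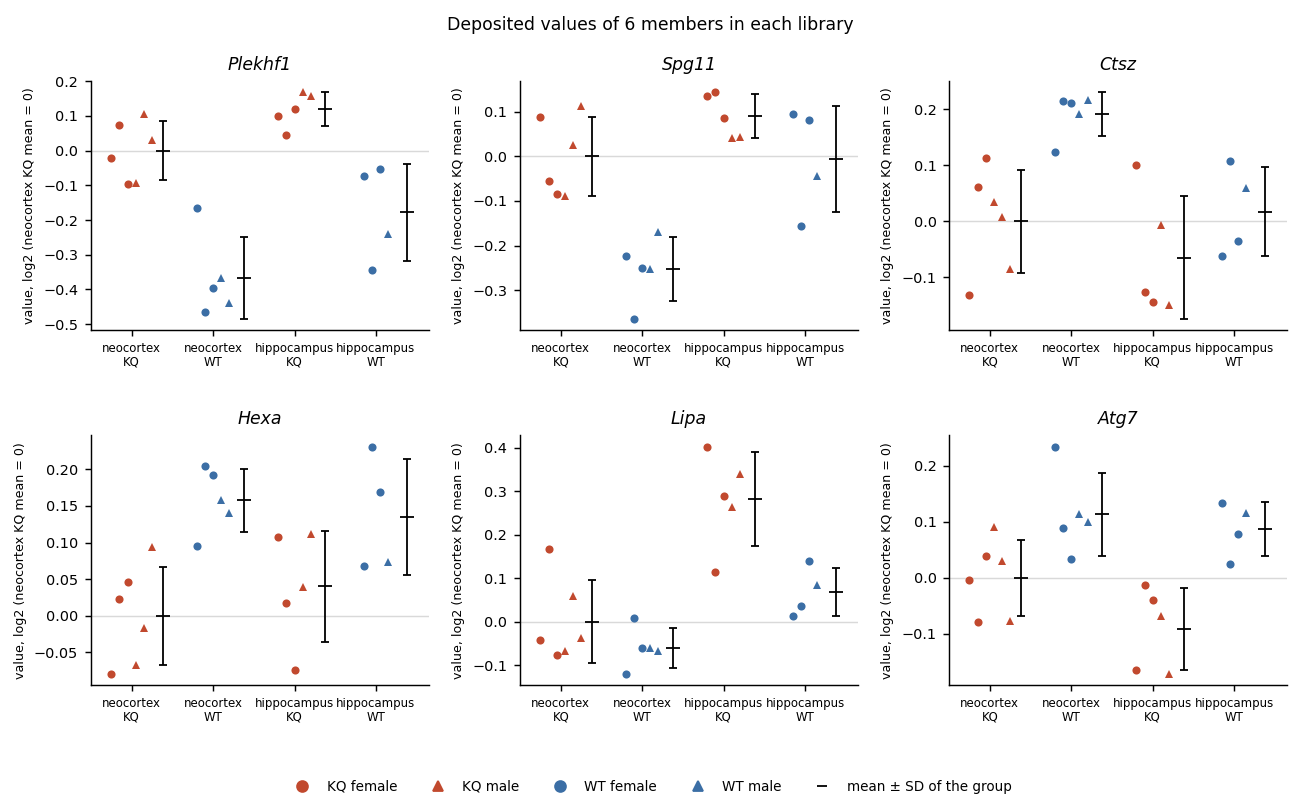
Deposited value of 6 members in each library; circles are females, triangles males, red TDP-43KQ/KQ (KQ) and blue TDP-43wt (WT), and the black bar is the mean ± SD of the group (n = 6, 5, 5 and 4). The y axis is log2-like with the neocortex KQ mean at 0, and each panel has its own scale; Plekhf1 does not overlap between genotypes in either region, Spg11, Ctsz and Hexa do not overlap in the neocortex, and Atg7 does not overlap in the hippocampus.

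The proteases leaned to lower values in the neocortex. Of 8 genes, 7 had a negative difference (median -0.12), 4 of them with an unadjusted p under 0.05: Ctsz (-0.22 ± 0.06), Ctsd (-0.20 ± 0.06), Ctsh (-0.20 ± 0.06) and Ctsb (-0.14 ± 0.06). Without TDP-43KQ/KQ female 1 the median was -0.063, with 7 of 8 still below 0 and 1 at an unadjusted p under 0.05, and the values were -0.18 for Ctsz, -0.14 for Ctsd, -0.13 for Ctsh and -0.071 for Ctsb. Cathepsin D is the main aspartic protease of the lysosome, and cathepsins B, H and Z are cysteine proteases. Only Ctsf, another cysteine protease, had a positive value (0.04 ± 0.05). In the hippocampus 4 of the 8 were above 0 and 4 below (median 0.021, or -0.056 without TDP-43KQ/KQ female 1 and 0.098 without the TDP-43wt male), led by Ctsl, the gene of cathepsin L, at 0.25 ± 0.11. Within litters the proteases were lower in TDP-43KQ/KQ for 7 of 8 genes in females and 8 of 8 in males of the neocortex, and for 2 of 8 and 6 of 8 in the hippocampus.

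Ctsz had the lowest p of the group in the neocortex. Its values ran between -0.131 and 0.113 in TDP-43KQ/KQ libraries (median 0.0206), against 0.123, 0.214 and 0.211 in TDP-43wt females and 0.191 and 0.217 in TDP-43wt males. The groups did not overlap, although TDP-43wt female 1 and the highest TDP-43KQ/KQ library were nearly level. Its adjusted p was 0.227. The same contrast within litters was -0.30 in females of litter 6 and -0.26 in males of litter 5. In the hippocampus Ctsz was 0.1, -0.126, -0.145, -0.00598 and -0.149 in TDP-43KQ/KQ libraries, against -0.0615, 0.107, -0.0359 and 0.0594 in TDP-43wt libraries (difference -0.03 ± 0.09, which turned to 0.08 without the TDP-43wt male).

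In the hippocampus Ctsl was 0.281, 0.0265 and -0.0161 in TDP-43KQ/KQ females and 0.0947 and 0.157 in males, against -0.268, 0.0266 and -0.0621 in TDP-43wt females and 0.0266 in the TDP-43wt male. The groups overlapped, and the adjusted p was 0.41. The difference was 0.40 in litter 6 females and 0.10 in litter 5 males. Without TDP-43KQ/KQ female 1 it was 0.10, and without the TDP-43wt male 0.40.

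Markers of other cells are given beside these values. Of 16 microglia markers, 14 had a negative difference in the neocortex (median -0.14), as did 15 in the hippocampus (median -0.13), with 7 and 5 at an unadjusted p under 0.05 and 0 called in either. Their mean value ran between -0.123 and 0.0666 in TDP-43KQ/KQ and between 0.0598 and 0.253 in TDP-43wt neocortex libraries, and between -0.0775 and 0.105 against 0.0474 and 0.394 in the hippocampus. Oligodendrocyte markers were below 0 for 12 of 12 genes in each region, with medians of -0.21 (neocortex) and -0.36 (hippocampus), and astrocyte markers for 12 and 9 of 12. Endothelial markers were below 0 for 9 of 10 genes in the neocortex (median -0.18, 4 at an unadjusted p under 0.05) and 4 of 10 in the hippocampus (median 0.054). Neuron markers were below 0 for 8 of 12 in the neocortex (median -0.034), where 5 had an unadjusted p under 0.05, 4 of them lower and 1 higher. Over all genes 13.7% had such a p in the neocortex and 12.1% in the hippocampus. Without TDP-43KQ/KQ female 1 of the region these shares were 5.2% and 2.71%, and the marker counts without it are not given here. The proteases as a mean ran between -0.0964 and 0.091 in TDP-43KQ/KQ and between 0.0875 and 0.122 in TDP-43wt neocortex libraries. In the hippocampus the protease mean was not lower in TDP-43KQ/KQ. It ran between -0.0298 and 0.145 in TDP-43KQ/KQ libraries (mean 0.0321) and between -0.0273 and 0.0781 in TDP-43wt libraries (mean 0.0231). Whether cell composition has a part in the protease values was not tested.

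**Figure D3:**
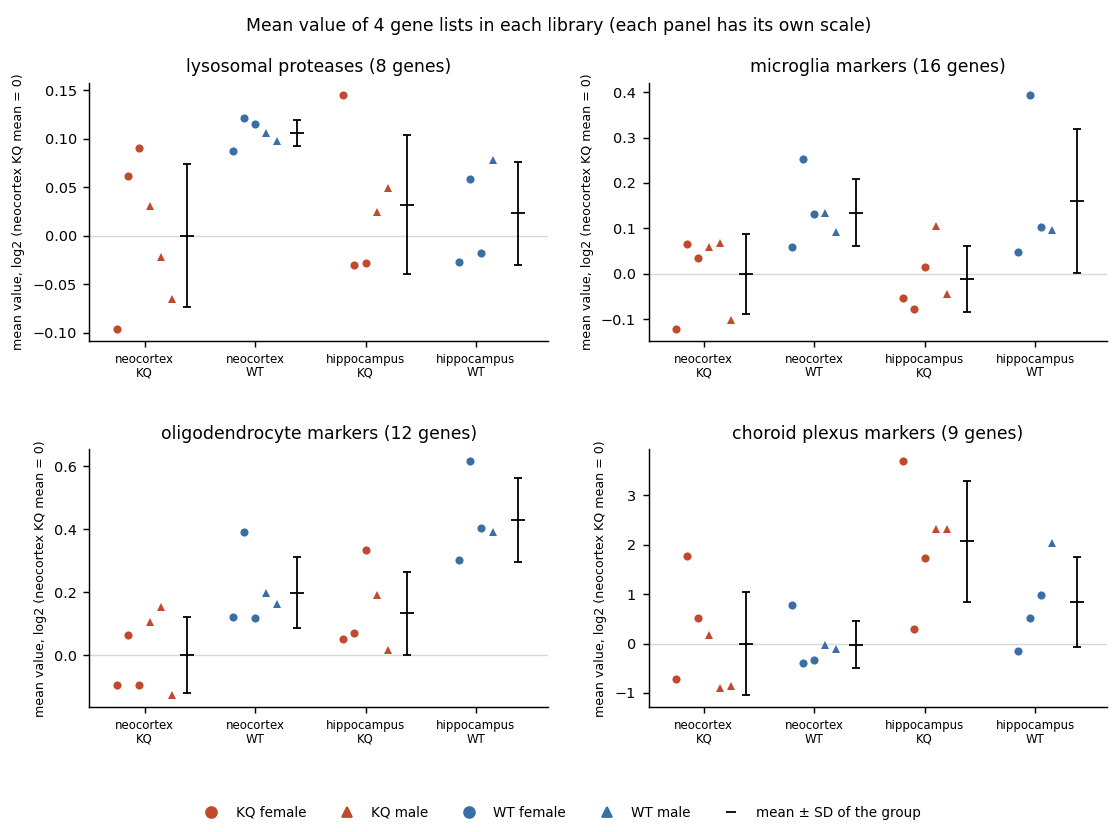
Mean value over the genes of 4 lists in each library, for the 8 lysosomal proteases and for microglia, oligodendrocyte and choroid plexus markers; circles are females, triangles males, red TDP-43KQ/KQ (KQ), blue TDP-43wt (WT), and the black bar is the mean ± SD of the group. The y axis is log2-like with the neocortex KQ mean at 0 and its own scale in each panel; in the choroid plexus panel hippocampus KQ female 1 is highest at 3.69, and the 4 hippocampus WT libraries lie between -0.153 and 2.02.

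Sugar and lipid hydrolases followed a weaker lean. In the neocortex 10 of 12 were below 0 (median -0.038) and 2 had an unadjusted p under 0.05, Hexa (-0.18 ± 0.06) and Gusb (-0.14 ± 0.05). Hexa encodes the alpha subunit of beta-hexosaminidase, which degrades GM2 ganglioside and is deficient in Tay-Sachs disease, and Gusb encodes beta-glucuronidase. Hexa ran between -0.079 and 0.0938 in TDP-43KQ/KQ neocortex libraries (median 0.00299), against 0.0949, 0.204, 0.191, 0.158 and 0.14 in TDP-43wt libraries. The groups were separate by a margin as narrow as 0.0938 against 0.0949, and the adjusted p was 0.274. Its hippocampus difference was -0.02 ± 0.07, and the sign turned without TDP-43wt female 2 (0.018). The neocortex value of Gusb was -0.085 without TDP-43KQ/KQ female 1.

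In the hippocampus 7 of the 12 hydrolases were above 0. Lipa, which encodes lysosomal acid lipase, the enzyme that splits cholesteryl esters and triglycerides, had the lowest p of all members there. Its values were 0.402, 0.115 and 0.289 in TDP-43KQ/KQ females and 0.263 and 0.339 in males, against 0.0139, 0.0365 and 0.138 in TDP-43wt females and 0.0852 in the TDP-43wt male. Only TDP-43KQ/KQ female 2 lay within the TDP-43wt range, and its hippocampus values are fixed by the removal of litter as the mirror of its neocortex values. The difference was 0.30 ± 0.07, a 1.23-fold ratio, with an unadjusted p of 0.0035 and an adjusted p of 0.275. It was 0.38 in litter 6 females and 0.22 in litter 5 males of the hippocampus, and 0.02 ± 0.06 in the neocortex. The neuraminidase gene Neu1 (-0.14 ± 0.06), the mannosidase gene Man2b1 (0.17 ± 0.08) and Gusb (-0.04 ± 0.06) did not overlap between the genotypes in the hippocampus. Man2b1 stood at 0.054 there without TDP-43KQ/KQ female 1 and at 0.28 without the TDP-43wt male.

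Markers of the choroid plexus, the secretory epithelium of the ventricles that lies next to the hippocampus, varied widely between the hippocampus libraries. All 9 markers, among them Kl and Kcnj13, had a positive difference with an unadjusted p under 0.05 in the hippocampus (median 1.77). Over all genes 12.1% had such a p in either direction, and none of the 9 was called. Their mean was 3.69, 0.292, 1.73, 2.30 and 2.32 in TDP-43KQ/KQ libraries (females 1 to 3, then males 1 and 2), against -0.153, 0.518, 0.982 and 2.02 in TDP-43wt libraries (females 1 to 3, then male 1). TDP-43KQ/KQ female 1 was the highest library for the markers and also for Lipa, Ctsl and Lamp2. TDP-43KQ/KQ female 2 was the lowest TDP-43KQ/KQ library for the markers and for Lipa and Lamp2. After the removal of litter its hippocampus values mirror its neocortex values, so its rank is no separate observation of the hippocampus. Among TDP-43wt libraries the male was highest for the markers and stood at 0.0852 for Lipa, under the 0.138 of female 3. Without TDP-43KQ/KQ female 1 the differences were 0.22 for Lipa, 0.10 for Ctsl and 0.06 for Lamp2. The part of this tissue in these values was not tested.

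Among the 7 membrane and transport genes, 5 were below 0 in the neocortex, as were 4 in the hippocampus. Npc2, a lumenal sterol carrier that hands cholesterol to NPC1, had the lowest p in the neocortex, with values between -0.156 and 0.162 in TDP-43KQ/KQ libraries (median -0.028), against 0.0687, 0.227, 0.212, 0.133 and 0.0259 in TDP-43wt libraries. The groups overlapped, and the difference was -0.15 ± 0.06 (adjusted p 0.35), or -0.07 without TDP-43KQ/KQ female 1. Lamp1, a major glycoprotein of the membrane, was close behind at -0.15 ± 0.06, or -0.055 without that library and -0.22 without TDP-43wt male 2. In the hippocampus Lamp2, which also serves chaperone-mediated autophagy, was 0.451, 0.133, 0.281, 0.29 and 0.302 in TDP-43KQ/KQ libraries, against -0.0207, 0.208, 0.109 and 0.236 in TDP-43wt libraries. Its difference was 0.21 ± 0.10 (adjusted p 0.435), with 0.36 in litter 6 females and 0.06 in litter 5 males.

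All 4 pump genes had a negative difference in each region, with medians of -0.094 (neocortex) and -0.091 (hippocampus) and no unadjusted p under 0.05. Without TDP-43KQ/KQ female 1 of the region the neocortex median was -0.0063 with 2 of 4 below 0, and the hippocampus median was -0.031 with 3 of 4. Within litters all 4 were lower in TDP-43KQ/KQ, except 1 of 4 in litter 5 males of the hippocampus. Atp6v0d1, a subunit of the membrane sector of the pump, was the lowest by p in the neocortex: values ran between -0.105 and 0.097 in TDP-43KQ/KQ libraries (median 0.00624), against 0.0991, 0.172, 0.113, 0.111 and 0.0607 in TDP-43wt libraries, which overlapped (-0.11 ± 0.06, adjusted p 0.457). It was -0.034 without TDP-43KQ/KQ female 1, and -0.17 without TDP-43wt female 3, TDP-43KQ/KQ female 3 or TDP-43KQ/KQ male 1. Atp6v1b2, of the sector that binds ATP, was lowest by p in the hippocampus at -0.358, -0.275, -0.283, -0.148 and -0.287 in TDP-43KQ/KQ libraries, against -0.188, -0.0259, -0.275 and -0.19 in TDP-43wt libraries (-0.14 ± 0.09, adjusted p 0.542). Without TDP-43KQ/KQ female 1 that value was -0.027, and without the TDP-43wt male -0.25.

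Tfeb and Tfe3, the transcription factors, were both below 0 in both regions, although Tfe3 stood at 0.055 in the neocortex without TDP-43wt male 2. Tfeb ran between -0.0984 and 0.0781 in TDP-43KQ/KQ neocortex libraries (median 0.00127), against 0.118, 0.166, 0.0949, 0.121 and 0.106 in TDP-43wt libraries, so that the groups were separate. The difference was -0.12 ± 0.06 with an unadjusted p of 0.0512 and an adjusted p of 0.368. In the hippocampus it was 0.0498, 0.0488, 0.126, 0.177 and 0.0906 in TDP-43KQ/KQ libraries, against 0.395, 0.122, 0.289 and 0.228 in TDP-43wt libraries, which overlapped only through TDP-43wt female 2 (-0.15 ± 0.09, adjusted p 0.529, or -0.085 without TDP-43wt female 1). Within litters Tfeb was lower in TDP-43KQ/KQ at all 4 places, by -0.13 and -0.12 in the neocortex and -0.21 and -0.09 in the hippocampus. The 13 members with CACGTG in the promoter had a median difference of -0.078 in the neocortex, against -0.052 for the 24 members whose promoter lacked it, and -0.019 against -0.0059 in the hippocampus; 0 were called in either set.

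Of the 10 autophagy genes, 6 were below 0 in the neocortex (median -0.059), and 9 were in the hippocampus (median -0.074). The neocortex median was 0.005 without TDP-43KQ/KQ female 1, with 5 of 10 below 0. In the hippocampus the count ran between 7 and 9 and the median between -0.10 and -0.055 without single libraries. Atg5 (-0.0046), Ulk1 (-0.0026) and Gabarap (-0.020) turned their sign in some of these fits. Neuron markers stood beside the hippocampus values, with 12 of 12 below 0 (median -0.15). Of these 5 had an unadjusted p under 0.05, against 12.1% of all genes, and 0 were called. Their part was not tested. Atg7, the E1-like enzyme that activates ATG12 and the LC3 proteins, led in the hippocampus with -0.165, -0.013, -0.0399, -0.0688 and -0.172 in TDP-43KQ/KQ libraries, against 0.133, 0.0244, 0.0778 and 0.116 in TDP-43wt libraries. The groups did not overlap, and the difference was -0.24 ± 0.07, a ratio of 0.847, with an unadjusted p of 0.01 and an adjusted p of 0.293. Both litters gave -0.24, and leaving out single libraries kept it between -0.26 and -0.22. In the neocortex the difference was -0.09 ± 0.06.

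The LC3 family and its relatives were below 0 in the hippocampus as well, although Gabarap lay near 0 at -0.020. Gabarapl1 stood at -0.21 ± 0.08 with an unadjusted p of 0.042, Map1lc3a at -0.21 ± 0.09 and Map1lc3b at -0.15 ± 0.07, and Gabarapl1, Map1lc3b and Becn1, the Beclin 1 gene, did not overlap between the genotypes. Their values without TDP-43KQ/KQ female 1 were -0.067 for Gabarapl1, -0.13 for Map1lc3a and -0.065 for Map1lc3b. In the neocortex Ulk1, the kinase gene at the start of autophagy, had the lowest p of the group, with values between -0.105 and 0.0883 in TDP-43KQ/KQ libraries (median -0.00791), against -0.0618, -0.267, -0.115, -0.132 and -0.0837 in TDP-43wt libraries. The difference was 0.14 ± 0.07 (adjusted p 0.396), with 0.078 without TDP-43KQ/KQ female 1 and 0.21 without TDP-43wt male 2. In the hippocampus it was -0.0026 ± 0.067, and its sign turned without the TDP-43wt male (0.049). Members not given here by value ran between -0.14 (Atp6v1h) and 0.07 (Atg9a) in the neocortex, and between -0.11 (Scarb2) and 0.17 (Asah1) in the hippocampus.

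In all, 8 members did not overlap between the genotypes in the neocortex (17.8% of 45, against a background of 8.51% of genes): Plekhf1 and Spg11 above, and Ctsb, Ctsh, Ctsz, Hexa, Gusb and Tfeb below the TDP-43wt range. In the hippocampus 8 did not overlap (17.8%, against 9.45% of genes): Plekhf1 and Man2b1 above, and Gusb, Neu1, Map1lc3b, Gabarapl1, Atg7 and Becn1 below. Plekhf1 and Spg11 were listed because the study names them as altered, so they raise these shares and are not independent evidence. The members below the TDP-43wt range numbered 6 in each region. The member share was the same in both regions, the backgrounds were similar, and the counts carry no test.

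A second question was how the members differ between the regions within a genotype, for which the model of both regions was used. In TDP-43KQ/KQ mice 20 of 45 members differed between the hippocampus and the neocortex: 14 were lower in the hippocampus (31.1%, against a background of 18.2% of genes) and 6 higher (13.3%, against 17.2%). In TDP-43wt mice 11 were lower (24.4%, against 14.7%) and 2 higher (4.44%, against 13.5%). The 9 members called in both genotypes were all lower in the hippocampus: Map1lc3a, Atg9a, Gabarapl1, Ctsb, Asah1, Smpd1, Atp6v0d1, Atp6v1b2 and Atp6v1h. The 2 contrasts compare different libraries, but they come from the same model, with shared sex and litter terms and a shared residual variance. The calls in the 2 genotypes are therefore not independent. Leaving out neocortex TDP-43wt female 3 changed the count in TDP-43KQ/KQ mice from 20 to 18. The female libraries of the regions match in genotype, number and litter, and the labels leave unstated whether they share mice. With these females joined by a random effect the counts were 22 in TDP-43KQ/KQ and 17 in TDP-43wt mice, and the share of all genes called in that fit is not given here. Without single libraries the counts ran between 12, without neocortex TDP-43KQ/KQ female 3, and 20 in TDP-43KQ/KQ mice, and between 6, without hippocampus TDP-43wt female 3, and 15 in TDP-43wt mice, where neocortex TDP-43wt female 2 also mattered (8 without it).

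**Figure D4:**
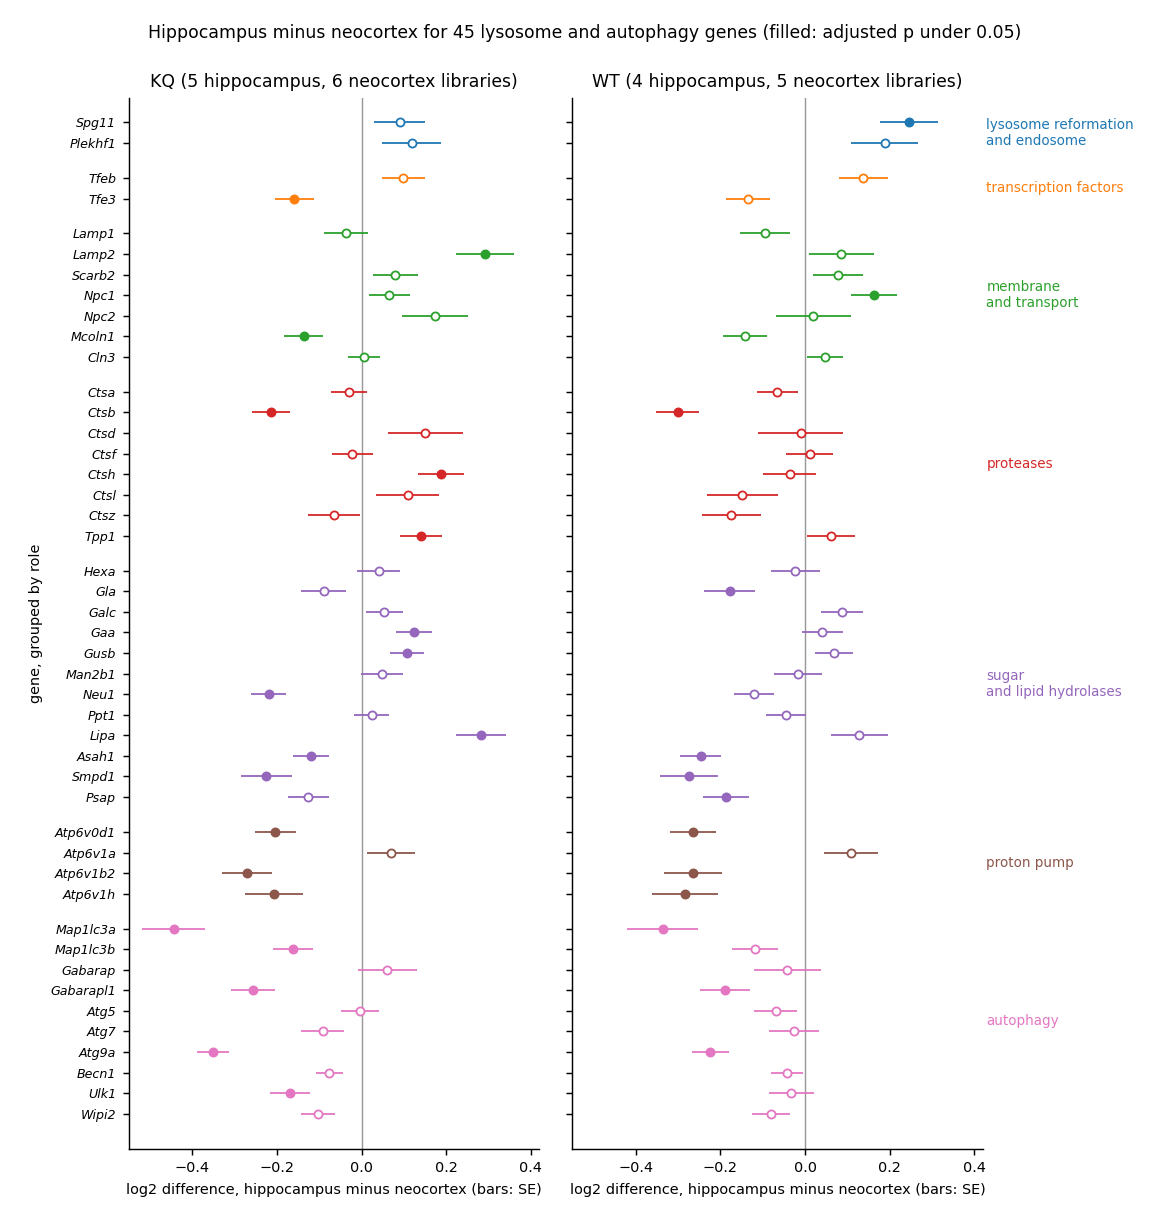
Log2 difference, hippocampus minus neocortex, of each of the 45 members in TDP-43KQ/KQ (KQ, left) and TDP-43wt (WT, right) mice, from the limma model of both regions; bars are ± 1 SE, filled points have an adjusted p under 0.05, and colours mark roles. Filled points left of 0 number 14 in KQ and 11 in WT, and 3 of the 4 proton pump genes are among them in each panel.

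Autophagy genes and pump genes held a large share of the lower calls. Of the autophagy genes, 5 of 10 were called lower in the TDP-43KQ/KQ hippocampus (against 18.2% of all genes). In TDP-43wt mice 3 of 10 were called lower (against 14.7%), and 0 were called higher in either genotype. Map1lc3a, which encodes LC3A, a ubiquitin-like protein of the autophagosome membrane, was -0.59, -0.408 and -0.549 in TDP-43KQ/KQ hippocampus females and -0.291 and -0.381 in males, against -0.0442 to 0.0611 in the TDP-43KQ/KQ neocortex. In TDP-43wt mice it was -0.434, -0.181, -0.312 and -0.203 in the hippocampus, against 0.117, 0.147, 0.127, 0.0533 and -0.177 in the neocortex. The regions did not overlap in either genotype, although neocortex TDP-43wt male 2 lay close above hippocampus TDP-43wt female 2. The difference, hippocampus minus neocortex, was -0.44 ± 0.07 in TDP-43KQ/KQ (adjusted p 0.000248) and -0.34 ± 0.08 in TDP-43wt mice (adjusted p 0.00743).

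Atg9a, the gene of the lipid scramblase that travels in autophagic vesicles, differed by -0.35 ± 0.04 in TDP-43KQ/KQ and -0.22 ± 0.04 in TDP-43wt mice, and Gabarapl1 by -0.26 ± 0.05 and -0.19 ± 0.06. Map1lc3b and Ulk1 passed in TDP-43KQ/KQ mice, at -0.16 ± 0.05 and -0.17 ± 0.05. Outside this group, the calls in TDP-43KQ/KQ mice included the calcium channel gene Mcoln1 (-0.14 ± 0.05), Neu1 (-0.22 ± 0.04) and Tfe3 (-0.16 ± 0.05), and those in TDP-43wt mice Gla (-0.18 ± 0.06) and Psap (-0.19 ± 0.06), the precursor gene of the sphingolipid activator proteins.

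The proton pump showed the same direction in 3 of its 4 genes, and Atp6v1a, the catalytic subunit A, was the exception at 0.07 ± 0.06 in TDP-43KQ/KQ and 0.11 ± 0.06 in TDP-43wt mice. Atp6v1b2 was -0.358 to -0.148 in the TDP-43KQ/KQ hippocampus, against -0.104 to 0.0914 in the TDP-43KQ/KQ neocortex, with no overlap. In TDP-43wt mice it was -0.188, -0.0259, -0.275 and -0.19 in the hippocampus, against 0.044, 0.212, 0.121, 0.0948 and 0.00225 in the neocortex. The differences were -0.27 ± 0.06 and -0.26 ± 0.07.

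Atp6v1h, a regulatory subunit, was -0.279, -0.224, -0.202, -0.119 and -0.21 in the TDP-43KQ/KQ hippocampus, against -0.174 to 0.0846 in the TDP-43KQ/KQ neocortex, where female 1 alone reached the hippocampus range. In TDP-43wt mice it was -0.184, 0.0457, -0.238 and -0.184 in the hippocampus, against 0.103, 0.289, 0.157, 0.143 and 0.0256 in the neocortex, and hippocampus female 2 was the library that reached the neocortex range. The differences were -0.21 ± 0.07 (adjusted p 0.029) and -0.28 ± 0.08 (adjusted p 0.0133). Atp6v0d1 differed by -0.20 ± 0.05 and -0.26 ± 0.06.

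Hydrolases went both ways between the regions. Ctsb, the gene of cathepsin B, was lower in the hippocampus in both genotypes without overlap, at -0.226, -0.215, -0.251, -0.147 and -0.229 in the TDP-43KQ/KQ hippocampus against -0.0882 to 0.0962 in the TDP-43KQ/KQ neocortex. In TDP-43wt mice it was -0.194, -0.072, -0.19 and -0.138 in the hippocampus, against 0.165, 0.208, 0.134, 0.152 and 0.0998 in the neocortex. The difference was -0.21 ± 0.04 in TDP-43KQ/KQ (adjusted p 0.0015) and -0.30 ± 0.05 in TDP-43wt mice (adjusted p 0.00033).

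Smpd1, which encodes acid sphingomyelinase, was -0.134, -0.286, -0.339, -0.186 and -0.181 in the TDP-43KQ/KQ hippocampus, against -0.13 to 0.16 in the TDP-43KQ/KQ neocortex. In TDP-43wt mice it was -0.237, -0.128, -0.279 and -0.116 in the hippocampus, against 0.0806, 0.112, 0.127, 0.0844 and 0.0176 in the neocortex. Neither genotype overlapped. The differences were -0.23 ± 0.06 (adjusted p 0.0091) and -0.27 ± 0.07 (adjusted p 0.00752). Asah1, the acid ceramidase gene, which acts on the product of that enzyme, differed by -0.12 ± 0.04 and -0.25 ± 0.05.

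The members higher in the hippocampus were not the same in both genotypes. In TDP-43KQ/KQ mice these were Lamp2 (0.29 ± 0.07), Lipa (0.28 ± 0.06), Ctsh (0.19 ± 0.06), Tpp1 (0.14 ± 0.05), Gaa (0.12 ± 0.04) and Gusb (0.11 ± 0.04), all of the lysosomal lumen or membrane. In TDP-43wt mice they were Spg11 (0.25 ± 0.07) and Npc1 (0.16 ± 0.05), the sterol exporter of the lysosomal membrane. Since no member passed the test of the difference between the genotype effects, calls in a single genotype do not show that the genotypes differ. Choroid plexus markers were higher in the hippocampus by a median of 1.74 in TDP-43KQ/KQ mice, with 8 of 9 called, and by 0.61 in TDP-43wt mice, with 0 of 9 called. The shares of all genes called higher there were 17.2% in TDP-43KQ/KQ and 13.5% in TDP-43wt mice.

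Neuronal markers stood beside the lower members. In the hippocampus 10 of 12 of them were lower in TDP-43KQ/KQ mice (median -0.30) and 7 of 12 in TDP-43wt mice (median -0.25), while astrocyte markers were higher for 6 and 5 of 12. Over all genes, 18.2% were called lower and 17.2% higher in the TDP-43KQ/KQ hippocampus, and 14.7% and 13.5% in the TDP-43wt hippocampus. The part of cell composition in the region differences was not tested.

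Other genes of the pathway, not counted among the 45, were read from lists written with earlier results of these data known. No gene of any of these lists was called for genotype in any of the 4 fits. Of 30 other lysosomal hydrolase genes, 20 were below 0 in the neocortex (median -0.043), but 10 in the hippocampus (median 0.066). Ctss, the gene of the microglial protease cathepsin S, had the lowest p in the neocortex (-0.32 ± 0.07, adjusted p 0.183), and Ctsc, of cathepsin C, in the hippocampus (0.23 ± 0.08, adjusted p 0.345). Of 28 other membrane genes, 16 and 14 were below 0, led by the tetraspanin gene Cd63 in the neocortex (-0.24 ± 0.09) and Lamp5 in the hippocampus (-0.27 ± 0.08). Of 16 other pump genes, 12 were below 0 in each region, with the lowest p for genes of a positive sign, Tcirg1 in the neocortex (0.21 ± 0.06) and Atp6v0e in the hippocampus (0.30 ± 0.09).

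Of 41 other autophagy genes, 19 were below 0 in the neocortex (median 0.0012), and 22 were in the hippocampus (median -0.012). Atg16l1, whose product directs LC3 attachment, had the lowest p in the neocortex (0.21 ± 0.06, adjusted p 0.219) and Tecpr1, of a tethering protein of autophagosome and lysosome, in the hippocampus (-0.23 ± 0.07, adjusted p 0.303). Among 30 genes that control TFEB, including mTORC1 and its lysosomal partners, Sesn1 had the lowest p in the neocortex (0.20 ± 0.05, adjusted p 0.183); the study names this stress-response gene as altered in these libraries. Zkscan3, a zinc-finger repressor described for autophagy genes, had the lowest in the hippocampus (0.36 ± 0.09, adjusted p 0.275). Of 26 genes of delivery to lysosomes, 17 were below 0 in each region, led by Plekhm1, of an adaptor for fusion with the lysosome, in the neocortex (0.20 ± 0.07) and Nagpa, of the enzyme that uncovers the mannose 6-phosphate tag, in the hippocampus (-0.20 ± 0.07). Among 16 partners of Spg11 and Plekhf1, such as the AP-5 complex and phosphoinositide enzymes, 11 and 9 were below 0 with 0 at an unadjusted p under 0.05, and Fig4 (-0.13 ± 0.06, neocortex) and Pi4k2a (-0.12 ± 0.07, hippocampus) had the lowest p.

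Between the regions the other pump and autophagy genes took the direction of the members. Over all genes, 18.2% were called lower and 17.2% higher in the TDP-43KQ/KQ hippocampus, and 14.7% and 13.5% in the TDP-43wt hippocampus. Of the 16 pump genes, 7 were lower and 1 higher in the TDP-43KQ/KQ hippocampus, and 6 were lower and 0 higher in the TDP-43wt hippocampus. Of the 41 autophagy genes, 13 were lower and 1 higher in TDP-43KQ/KQ mice, and 12 were lower and 1 higher in TDP-43wt mice. Other hydrolases went the opposite way in TDP-43KQ/KQ mice, with 8 of 30 higher and 4 lower. In TDP-43wt mice 3 of 30 were higher and 2 lower, both under the share of all genes. These lists share libraries and cell types with the members and are given as counts.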

How the data were processed

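Total RNA of 20 tissue samples (neocortex and hippocampus, TDP-43KQ/KQ and TDP-43wt, 18 months) was sequenced after depletion of ribosomal RNA. According to the submitters' processing notes, the authors used cutadapt, STAR 2.5.2b, Salmon, DESeq2 1.34.0, R 4.1.0 and limma with the build mm10. The deposited values are on a log2-like scale: the authors transformed counts with the variance-stabilizing method of DESeq2, and effects of sex and of litter were taken out with limma. They hold no counts or depth, so no count model was run and error is the spread among libraries. Each gene is centred on the neocortex TDP-43KQ/KQ libraries.

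Groups, sex and litter came from the sample labels. Genes at 0 throughout (4383 of 24528) and genes tied in all 3 libraries of a region, sex and litter were left out. lmFit and eBayes of limma 3.58.1 (R 4.3.3) were run with genotype, sex and litter for each region alone (residual degrees of freedom 4 and 3), and with the 4 groups, sex and litter for both regions in 1 model (11). Both nuisance terms stayed in the fits because their earlier removal had used up degrees of freedom. p-values were adjusted after Benjamini and Hochberg over all genes tested, with a threshold of 0.05. They measure the spread between these libraries. The fits were also run on simulated data with independent noise and planted changes larger than the genotype difference of any member in a region alone. That simulation does not cover power at the sizes reported here, nor mice shared between the regions.

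The members and lists were chosen with earlier results of these data known. Values in every library are given for Plekhf1 and Spg11, for the member with the lowest p of genotype in each role and region, and for the 5 members with the largest region difference in TDP-43wt mice; in each pathway list the gene with the lowest p per region is named. Promoters are from RefSeq (GRCm38.p6), and gene positions from RefSeq on the same assembly. Alternatives were other terms, a replicate block, litter or mouse as random effects (statmod 1.5.0), robust estimation, other filters, centring of libraries and omission of each library. Figures used Python 3.11.15 and matplotlib.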

Additional observations from a re-analysis of the deposited data

Results flagged for a closer look

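Among the members named with their values in every library, 3 had a library far from the others of its group by Dixon's 95% criterion. With 68 such groups looked at, chance alone flags about 1 in 20 of them. Neocortex TDP-43wt male 1, which sits at the mean of its group, was left out of this comparison. Ctsz stood at 0.123 in neocortex TDP-43wt female 1, against 0.211 to 0.217 in the others of that group. Atp6v0d1 stood at -0.132 in hippocampus TDP-43KQ/KQ male 1, against -0.22 to -0.223 in the other 4. Map1lc3a stood at -0.177 in neocortex TDP-43wt male 2, against 0.117 to 0.147 in the others.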

How the results depend on the processing

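The counts of members called depended on how litter entered the fit. In the neocortex alone 10 members were called with genotype as the only term, 9 with sex but without litter and 9 with litter as a random effect, against 0; in the hippocampus alone genotype as the only term called 1 (Plekhf1). In the model of both regions 9 members in the neocortex and 7 in the hippocampus were called without litter, and 20 members between the regions in TDP-43wt mice, against 13. These fits do not count the degrees of freedom spent when the authors removed litter. The shares of all genes they called are not given here, so these counts show how the fits differ and nothing particular to the members. With each library left out in turn, the same model called 0 to 1 members in the neocortex (Plekhf1, without neocortex TDP-43wt female 1, neocortex TDP-43KQ/KQ male 1 or hippocampus TDP-43wt female 2) and 0 to 1 in the hippocampus (Lipa, without neocortex or hippocampus TDP-43KQ/KQ female 2). Between the regions it called 12 (without neocortex TDP-43KQ/KQ female 3) to 20 members in TDP-43KQ/KQ mice, and 6 (without hippocampus TDP-43wt female 3) to 15 in TDP-43wt mice, with 8 without neocortex TDP-43wt female 2. With a replicate block the model of both regions called 1 member in the neocortex (Plekhf1) and changed no other count by over 1.5 times. Replicate numbers do not pair the genotypes: the deviations of libraries of the same number correlated between -0.604 and 0.117. With single libraries left out of the fits of a region alone, the genotype difference turned its sign for 11 of 45 members in the neocortex and for 17 in the hippocampus, there including Ctsz, Hexa and Ulk1.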
